A study of Mus musculus with 4 samples.

Results

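Solute carriers are membrane proteins that move amino acids, sugars, ions, metals, vitamins and other small molecules across cell membranes, and their gene symbols begin with Slc or Slco. The group described here is the set of solute carrier genes in the deposited table, leaving out the mitochondrial Slc25a family and the insulin-responsive glucose transporter Slc2a4. It holds 53 of the 3760 genes in that table, chosen by symbol and not by level. Carriers use gradients set by the sodium pump and other ATPases, exchange one solute for another, or let a solute follow its own gradient. In skeletal muscle they are known for the supply of creatine, taurine and amino acids to the fibre and for the control of calcium, chloride and pH.

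The cells were cultured myoblasts from skeletal muscle of adult C57BL/6 mice, a population that the labels call Twist2-positive. All cells were exposed for 24 h to a retrovirus, which carried either the transcription factor Twist2 of the basic helix-loop-helix family, joined to green fluorescent protein (GFP) through an internal ribosome entry site (Twist2-IRES-GFP), or GFP alone. Growth medium (Ham's F10, 20% fetal bovine serum) followed for 24 h. Cells were harvested then, or after 5 days of differentiation in high-glucose DMEM holding 2% horse serum. The 4 groups are Twist2 cells after differentiation (Tw2-DM), Twist2 cells in growth medium (Tw2-GM), GFP cells after differentiation (GFP-DM) and GFP cells in growth medium (GFP-GM), with 1 library each. No difference given here therefore has a replicate check, no p-value can be had, and library and condition cannot be told apart. How many animals or cultures a library stands for is not given in the sources used here.

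Values are CPM as deposited, the reads of a gene scaled to 1000000 reads of its library. Differences are log2 ratios of CPM + 1, which understate the difference of genes with few reads. A carrier is called higher or lower where the ratio is at least 2-fold and the higher of the 2 libraries has at least 10 CPM. Intervals are 95% Clopper-Pearson counting intervals of the ratio of reads without the added 1 CPM, and cover counting error only. In bulk RNA, fewer cells of a type and less RNA per cell cannot be told apart.

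The libraries held between 9235281 and 12362290 reads, and the 53 carriers took 0.564% of them in Tw2-DM, 0.326% in Tw2-GM, 0.678% in GFP-DM and 0.430% in GFP-GM. Twist2 had 8335 reads in Tw2-DM and 15915 in Tw2-GM, against 0 in GFP-DM and 1 in GFP-GM. The label Twist2-positive thus does not describe Twist2 RNA in the GFP libraries. The table held 8 of 9 myoblast and myotube markers, with a summed level of 10223 CPM in Tw2-DM, 1595 in Tw2-GM, 49614 in GFP-DM and 3528 in GFP-GM. Most of the GFP-DM sum came from the sarcomere genes Myh3 (27313 CPM) and Acta1 (12797 CPM). By the same rule 5 of the 8 were higher and 1 lower in GFP-DM over GFP-GM (32.6% and 40.9% of all genes tested). In Tw2-DM over Tw2-GM 6 were higher and 0 lower (26.5% and 24.5%). In Tw2-GM over GFP-GM all 8 had ratios below 0, and 6 of 7 tested were lower (10.6% of all genes tested). Myog had 378 CPM in Tw2-DM, 3.52 in Tw2-GM, 1075 in GFP-DM and 76.4 in GFP-GM. Not all markers moved together. Pax7, a satellite cell factor, had 34.6 CPM in Tw2-DM, 60.5 in Tw2-GM, 4.01 in GFP-DM and 78.7 in GFP-GM, and Myod1 had 1068 in Tw2-DM, 547 in Tw2-GM, 810 in GFP-DM and 1184 in GFP-GM. Of 6 fibroblast markers 2 were in the table, with summed levels of 67.9 CPM in Tw2-DM, 43.5 in Tw2-GM, 1.19 in GFP-DM and 12.9 in GFP-GM, and they went opposite ways in Twist2 differentiation. Ly6a had 3.32 CPM in Tw2-DM and 32.9 in Tw2-GM (0 in GFP-DM and 11.0 in GFP-GM), and Dcn had 64.6 CPM in Tw2-DM and 10.6 in Tw2-GM (1.19 in GFP-DM and 1.95 in GFP-GM). Tubb3 alone was listed of 5 Schwann cell and neuron markers, and Rgs5 alone of 4 smooth muscle and pericyte markers, both lower after differentiation with either virus. Rgs5, the pericyte marker, had 4.69 CPM in Tw2-DM, 85.1 in Tw2-GM, 0.108 in GFP-DM and 51.7 in GFP-GM. None of the 5 endothelial, 6 macrophage and 5 adipocyte names was in the table, which does not show that they were unexpressed. The part of these marker levels in the results below was not tested.

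The label of plasma membrane carriers covers most but not all of the genes. A list of genes and families known mainly from internal membranes (endoplasmic reticulum, Golgi, endosomes, lysosomes, vesicles or mitochondria) holds 19 of the 53. The other 34 are not on it, which does not place each of them at the cell surface. Among the 19 are all 5 members of the Slc35 family, the zinc carrier Slc30a4, the iron carrier Slc11a2, the vesicular monoamine carrier Slc18a1 and the mitochondrial sodium-calcium exchanger Slc8b1. The table lists only genes with at least 10 CPM in 2 or more libraries and a 2-fold difference from GFP-GM in at least 1 of the authors' 3 comparisons. Of the 53 carriers, 42 met that limit in GFP-DM, 28 in Tw2-DM and 8 in Tw2-GM, so calls against GFP-GM are in part fixed by the selection. Carriers outside the table were not analysed here.

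Promoter sequences are shown for the carriers at the ends of the responses, because Twist2 and the muscle factors Myod1 and Myog bind E-boxes, short motifs of the form CANNTG. Each is the most upstream window of its gene in the RefSeq table (GRCm38.p6), from 250 bases before to 50 bases after the start, 5′ to 3′ on the strand of the gene. Capitals mark 3 kinds of E-box on either strand: CAGCTG, the like palindrome CATATG, and the form CATCTG, which the other strand shows as CAGATG. Slc2a6 and Slc6a9 had the highest ratios in GFP differentiation among carriers with a window, Slc19a2 the lowest, and Slc4a3 and Slc5a3 the most negative and most positive difference between the Twist2 and GFP responses.
Slc2a6 (chr2:27027949-27028248, minus strand): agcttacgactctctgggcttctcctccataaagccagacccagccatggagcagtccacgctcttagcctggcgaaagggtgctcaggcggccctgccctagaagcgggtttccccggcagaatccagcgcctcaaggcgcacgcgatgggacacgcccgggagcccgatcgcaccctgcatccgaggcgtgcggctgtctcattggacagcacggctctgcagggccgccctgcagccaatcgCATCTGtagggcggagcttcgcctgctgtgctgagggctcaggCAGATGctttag
Slc6a9 (chr4:117835008-117835307, plus strand): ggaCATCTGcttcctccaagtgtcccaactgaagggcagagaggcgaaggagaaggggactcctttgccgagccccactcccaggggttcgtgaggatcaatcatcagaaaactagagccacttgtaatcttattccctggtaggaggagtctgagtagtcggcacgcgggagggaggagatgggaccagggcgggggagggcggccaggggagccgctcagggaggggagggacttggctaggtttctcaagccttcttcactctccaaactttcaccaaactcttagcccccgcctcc
Slc19a2 (chr1:164248796-164249095, plus strand): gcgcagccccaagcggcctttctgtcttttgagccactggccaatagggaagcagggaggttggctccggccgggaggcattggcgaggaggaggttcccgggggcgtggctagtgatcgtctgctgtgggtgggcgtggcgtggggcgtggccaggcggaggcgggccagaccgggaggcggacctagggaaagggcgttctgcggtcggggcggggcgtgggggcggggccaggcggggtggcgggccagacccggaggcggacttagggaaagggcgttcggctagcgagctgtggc
Slc4a3 (chr1:75546212-75546511, plus strand): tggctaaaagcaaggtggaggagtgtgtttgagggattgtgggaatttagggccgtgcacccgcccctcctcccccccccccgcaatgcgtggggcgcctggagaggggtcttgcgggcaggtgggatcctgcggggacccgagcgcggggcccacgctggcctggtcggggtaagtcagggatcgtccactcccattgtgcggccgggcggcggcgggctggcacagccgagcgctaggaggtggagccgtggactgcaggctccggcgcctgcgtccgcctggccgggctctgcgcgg
Slc5a3 (chr16:92058072-92058371, plus strand): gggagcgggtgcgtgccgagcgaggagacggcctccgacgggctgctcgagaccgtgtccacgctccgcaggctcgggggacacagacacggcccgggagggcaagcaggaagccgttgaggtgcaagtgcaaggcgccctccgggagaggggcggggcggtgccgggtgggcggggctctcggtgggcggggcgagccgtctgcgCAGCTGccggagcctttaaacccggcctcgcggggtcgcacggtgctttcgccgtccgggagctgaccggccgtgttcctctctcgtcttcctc
The window of Slc2a6 held 2 of these E-boxes, those of Slc6a9 and Slc5a3 held 1 each, and those of Slc19a2 and Slc4a3 held none of these 3 kinds. Other forms of CANNTG were neither marked nor counted. The windows of Slc4a3 (CAGGTG), Slc5a3 (CAAGTG) and Slc6a9 (CAAGTG and CACTTG) hold such forms, so an unmarked window is not free of E-boxes by this count. Of 58 windows of 39 carriers, 24 (41.4%) held at least 1 of the 3 motifs, against 33.4% of all 32851 windows. CAGCTG was in 20.7% of carrier windows and 16.3% of all windows, CATCTG in 20.7% and 17.2%, and CATATG in 1.72% and 3.91%. A match is a description of the letters and not evidence of binding.

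Differentiation of GFP cells was the first comparison, and more carriers were higher than lower after it. In GFP-DM over GFP-GM, 25 of the 52 carriers with at least 10 CPM in either library were at least 2-fold higher (48.1%) and 17 lower (32.7%), whereas 32.6% of all genes tested were higher and 40.9% lower. The median log2 ratio was 0.85 over the 53 carriers, although their mean was 0.44, and -0.40 over all listed genes. Dividing by the reads of genes that the table does not list (outside-table scaling) left 30 higher and 6 lower, and size factors left 29 higher and 8 lower, so the count of lower carriers depends on how the libraries are scaled. The log2 median over the listed genes shifted by 0.78 with the first of these and 0.34 with the second. The shares of all genes at 2-fold were not counted under these scalings. The ratio also went with length, whose part was not tested: the median was -0.004 for the 27 carriers with at least 5411 exon bases and 1.19 for the 26 shorter ones, while the same split of all listed genes gave -0.40 and -0.43. Higher at 2-fold were 20 of 33 tested carriers outside the internal membrane list and 5 of the 19 in it. Being outside the list does not place a carrier at the cell surface. Slc6a17, known from synaptic vesicles, is counted among the 20.

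In Tw2-DM over Tw2-GM, 21 of 52 carriers were higher (40.4%) and 5 lower (9.62%), whereas 26.5% of all genes tested were higher and 24.5% lower. The median was 0.74 over the carriers and -0.22 over all listed genes. Split at 5411 exon bases, it was 0.54 for the longer and 0.90 for the shorter carriers. The same split of all listed genes gave -0.47 and 0.13, and the part of length was not tested. By these calls 16 carriers were higher after both differentiations and 4 were lower after both. Another 13 were lower in the GFP cells and called neither way in the Twist2 cells. A further 9 were higher in the GFP cells and called neither way in the Twist2 cells. In the Twist2 cells alone 5 were called higher and 1 lower, and 5 were called in neither differentiation. These joint counts were not made over all genes and are descriptions. A call in one differentiation and none in the other does not show that they differ. The shares over all genes tested in each differentiation are also the background of the class and list counts that follow, which rest on few genes and are descriptions.

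In growth medium, Tw2-GM over GFP-GM, 0 of 43 tested carriers were 2-fold higher and 7 were lower (16.3%), whereas 5.21% of all genes tested were higher and 10.6% lower. The median was -0.10 both over the carriers and over all listed genes. With size factors, which shifted the median of the listed genes by 0.23, only Slc4a7 and Slc9a7 of the 7 were 2-fold lower. After differentiation, Tw2-DM over GFP-DM, 12 of 51 carriers were higher (23.5%) and 10 lower (19.6%), close to the 25.4% and 25.2% of all genes tested, so these counts are not a result about carriers. Outside-table scaling, which shifted the median of the listed genes by -0.57, left 4 higher and 19 lower. The shares of all genes were not counted under that scaling, so the 4 and 19 have no background. Split at 5411 exon bases, the unscaled median was 0.06 for the longer and -0.10 for the shorter carriers. The same split of all listed genes gave -0.40 and 0.29, and the part of length was not tested.

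**Figure D1:**
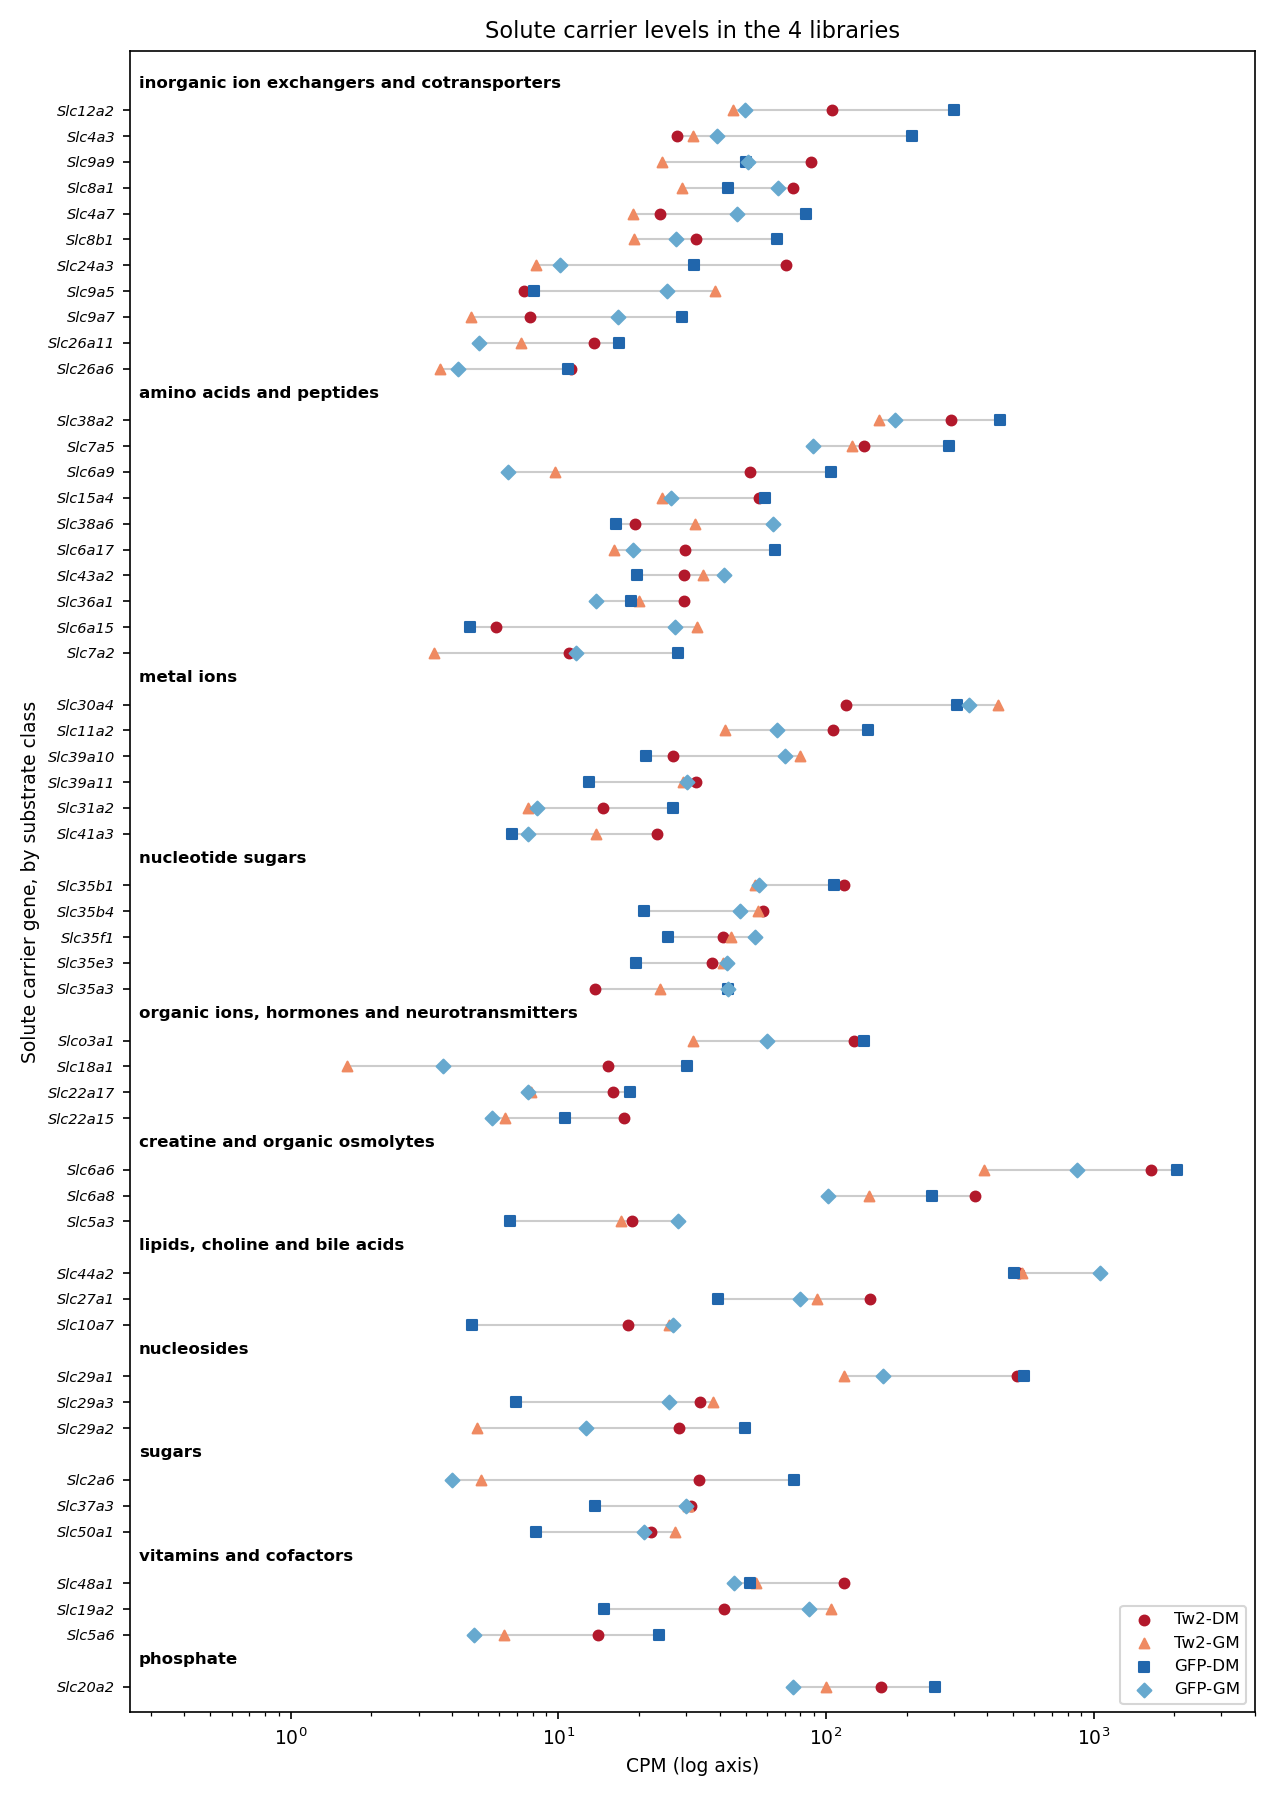
CPM of 52 of the 53 solute carriers (log axis) in the 4 libraries, 1 symbol per library, grouped by substrate class; the grey line joins the lowest and highest library. Slc6a6 reaches 2054 CPM in GFP-DM, and Slc18a1 has the lowest value shown, 1.63 CPM in Tw2-GM.

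The class with the taurine and creatine carriers took the largest part of the carrier reads after differentiation with either virus. Most of that part was the taurine carrier Slc6a6, with 1641 of 2020 summed CPM in Tw2-DM and 2054 of 2308 in GFP-DM. The class of creatine and organic osmolytes held 35.8% of the reads of the 53 carriers in Tw2-DM and 16.9% in Tw2-GM, and 34.1% in GFP-DM and 23.2% in GFP-GM. Slc6a6, the sodium-dependent taurine transporter, had 1641 CPM in Tw2-DM, 388 in Tw2-GM, 2054 in GFP-DM and 868 in GFP-GM. Its log2 ratio was 2.08 in Twist2 differentiation (interval 2.03 to 2.13) and 1.24 in GFP differentiation (1.21 to 1.28). Both differentiated libraries were above both growth medium libraries, and Tw2-GM was the lowest, with a log2 ratio of -1.16 over GFP-GM (-1.22 to -1.11). Per kilobase of merged exons Slc6a6 was the most abundant carrier, averaging 146 CPM per kb over the libraries, followed by Slc29a1 with 83.9 and Slc44a2 with 75.5. The lowest was Slc22a15, with 0.706 CPM per kb.

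The creatine transporter Slc6a8 had 360.0 CPM in Tw2-DM, 144 in Tw2-GM, 248 in GFP-DM and 101 in GFP-GM. It was higher after differentiation by nearly the same ratio in Twist2 cells (1.31, interval 1.24 to 1.40) and in GFP cells (1.28, 1.18 to 1.40). Of 5 names of the creatine pathway, the table held 4, and 4 were higher in Twist2 and 3 in GFP differentiation. Among them Gatm, which makes the creatine precursor, had 129 CPM in Tw2-DM, 21.7 in Tw2-GM, 275 in GFP-DM and 108 in GFP-GM. Gamt, which makes creatine from it, had 244 CPM in Tw2-DM, 43.2 in Tw2-GM, 129 in GFP-DM and 77.8 in GFP-GM. Slc5a3, a sodium-dependent carrier of the osmolyte myo-inositol, went another way. It had 18.8 CPM in Tw2-DM, 17.1 in Tw2-GM, 6.61 in GFP-DM and 28.02 in GFP-GM, a ratio of 0.13 in Twist2 differentiation (-0.15 to 0.42) and -1.93 in GFP differentiation (-2.51 to -1.68). The annotation places 159 bases of its exons in exons of Mrps6 on the same strand, so reads of the pair may have been mixed.

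**Figure D2:**
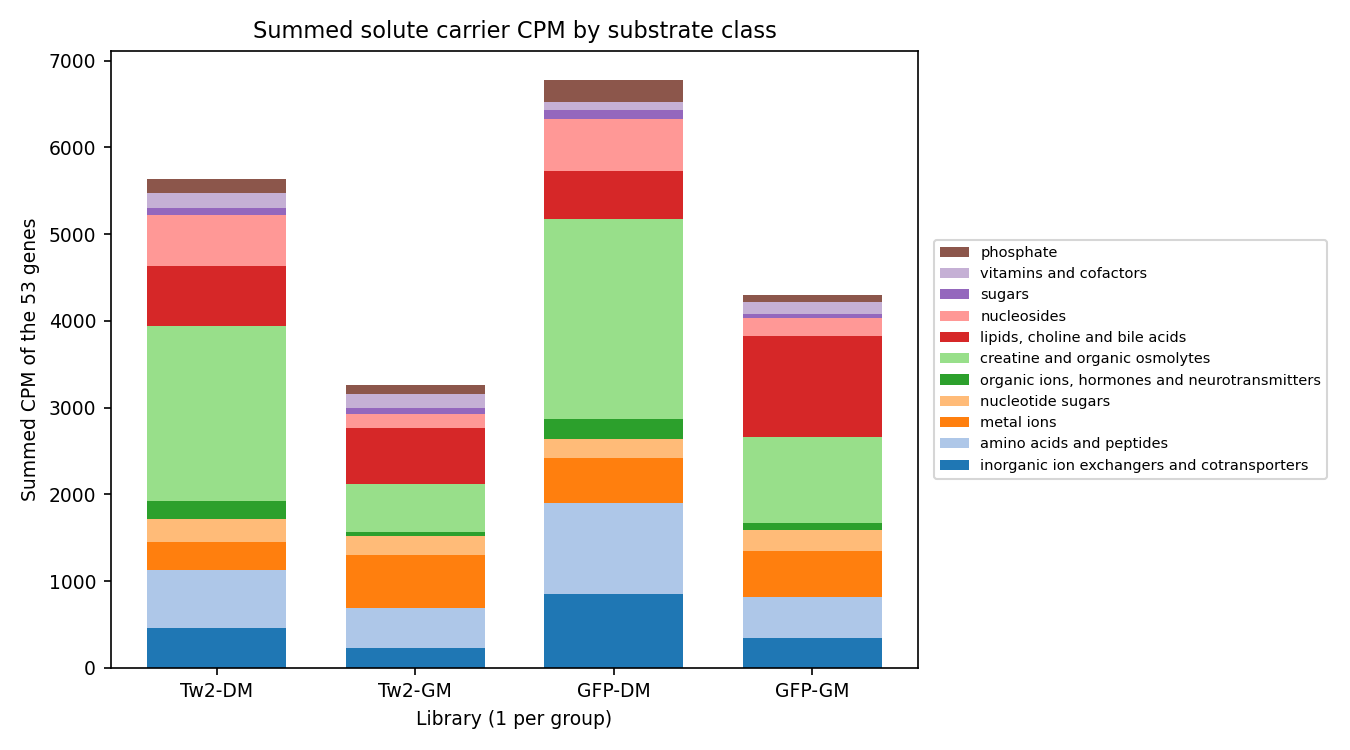
Summed CPM of the 53 solute carriers in each library (1 per group), with bar segments for the 11 substrate classes. The creatine and osmolyte segment is the largest in Tw2-DM and GFP-DM, and the lipid and choline segment is the largest in Tw2-GM and GFP-GM.

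Of 10 amino acid and peptide carriers, 3 were higher and 1 lower in Twist2 differentiation, and 6 were higher and 3 lower in GFP differentiation. Over all genes tested, 26.5% were higher and 24.5% lower in Twist2 differentiation, so the 3 of 10 are near that share, and 32.6% were higher and 40.9% lower in GFP differentiation. Slc38a2, a sodium-coupled carrier of small neutral amino acids, was the class member with the highest mean, with 293 CPM in Tw2-DM, 157 in Tw2-GM, 448 in GFP-DM and 181 in GFP-GM. Slc7a5, which exchanges large neutral amino acids such as leucine as a dimer with the heavy chain Slc3a2, had 138 CPM in Tw2-DM, 125 in Tw2-GM, 287 in GFP-DM and 89.6 in GFP-GM. The GFP-DM library stood above the other 3 for both. For Slc7a5 the ratio was 0.15 in Twist2 differentiation (0.05 to 0.25), 1.67 in GFP differentiation (1.57 to 1.79) and -1.05 in Tw2-DM over GFP-DM (-1.14 to -0.96).

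Slc6a9, the glycine transporter, had the second highest ratio of all carriers in GFP differentiation. It had 52.0 CPM in Tw2-DM, 9.67 in Tw2-GM, 104 in GFP-DM and 6.47 in GFP-GM, ratios of 2.31 (2.13 to 2.74) in Twist2 and 3.82 (3.65 to 4.41) in GFP cells. Its exons share up to 1258 bases with Ccdc24 on the opposite strand, and the strand setting of the counting is not given in the sources used here. Slc6a17, a carrier of neutral amino acids known from synaptic vesicles though not on the internal membrane list, had 29.7 CPM in Tw2-DM, 16.2 in Tw2-GM, 64.4 in GFP-DM and 19.0 in GFP-GM. Slc7a2, which carries arginine and other cationic amino acids, had 10.9 CPM in Tw2-DM, 3.43 in Tw2-GM, 28.04 in GFP-DM and 11.6 in GFP-GM. It was 2-fold lower with Twist2 before (-1.51, interval -2.33 to -1.21) and after differentiation (-1.28, -1.67 to -1.06). Slc7a2 had only 38 reads in Tw2-GM. The call before differentiation was lost with 5 CPM added in place of 1, with size factors and with outside-table scaling.

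On the lower side, Slc6a15, a carrier of branched-chain amino acids known mainly from brain, had 5.82 CPM in Tw2-DM, 33.1 in Tw2-GM, 4.66 in GFP-DM and 27.2 in GFP-GM. The 2 differentiation ratios were both -2.32, and both differentiated libraries were below both growth medium libraries. Slc38a6, a relative of Slc38a2, had 19.3 CPM in Tw2-DM, 32.3 in Tw2-GM, 16.4 in GFP-DM and 63.1 in GFP-GM. The class also holds Slc43a2, a facilitative carrier of large neutral amino acids, lower in GFP differentiation (-1.05, a call that both scalings ended), and the lysosomal carriers Slc15a4, higher in both differentiations, and Slc36a1, the single carrier of the 53 that was called in none of the 4 comparisons. Of 20 names of the ATF4 amino acid response, a programme that switches on amino acid carriers and enzymes under shortage, the table held 6. Of these, 3 were higher and 0 lower in Twist2 differentiation, and 3 were higher and 2 lower in GFP differentiation. Ddit4, which restrains mTOR signalling, had 232 CPM in Tw2-DM, 60.4 in Tw2-GM, 18.7 in GFP-DM and 47.9 in GFP-GM, but does not stand for the list. Ddit4 and Cebpb were the 2 lower genes in GFP differentiation, where Chac1 (1.35), Mthfd2 (1.34) and Psat1 (1.04) were higher. In Tw2-DM over GFP-DM Ddit4 (3.56) and Cebpb (2.25) were higher and the other 4 were called neither way. Of all genes tested 25.4% were higher in that comparison.

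Among 11 inorganic ion exchangers and cotransporters, 5 were higher and 1 lower in Twist2 differentiation, and 6 higher and 1 lower in GFP differentiation. Slc12a2, the sodium-potassium-chloride cotransporter, had 106 CPM in Tw2-DM, 44.7 in Tw2-GM, 302 in GFP-DM and 49.9 in GFP-GM. It was higher in both differentiations, with ratios of 1.22 (1.09 to 1.39) in Twist2 and 2.57 (2.46 to 2.74) in GFP cells. Slc4a3, a chloride-bicarbonate exchanger of excitable tissues, had the largest difference of all carriers between the 2 viruses. It had 27.7 CPM in Tw2-DM, 31.9 in Tw2-GM, 209 in GFP-DM and 39.2 in GFP-GM. Its ratio was -0.19 in Twist2 differentiation (-0.42 to 0.02), 2.38 in GFP differentiation (2.25 to 2.57) and -2.87 in Tw2-DM over GFP-DM (-3.08 to -2.75). GFP-DM thus stood alone above 3 similar libraries. Slc4a7, a sodium-bicarbonate cotransporter, had 24.0 CPM in Tw2-DM, 19.0 in Tw2-GM, 84.5 in GFP-DM and 46.3 in GFP-GM, so both Twist2 libraries lay below both GFP libraries. The same order of viruses held for Slc9a7, a sodium-proton exchanger of the Golgi, with 7.85 CPM in Tw2-DM, 4.70 in Tw2-GM, 29.0 in GFP-DM and 16.6 in GFP-GM. For both genes the interval of the ratio in either medium lay below 0.

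Calcium exchangers did not share one pattern. Slc24a3, which exchanges calcium for sodium and potassium, had 70.6 CPM in Tw2-DM, 8.22 in Tw2-GM, 32.2 in GFP-DM and 10.2 in GFP-GM, ratios of 2.96 (2.79 to 3.43) in Twist2 and 1.57 (1.33 to 2.01) in GFP differentiation. Slc8a1, the sodium-calcium exchanger best known from heart muscle, had 75.0 CPM in Tw2-DM, 29.0 in Tw2-GM, 42.9 in GFP-DM and 66.3 in GFP-GM. Its ratio was 1.34 in Twist2 differentiation (1.19 to 1.56) and -0.62 in GFP differentiation (-0.81 to -0.45), but 0.17 in GFP differentiation with outside-table scaling. Slc8b1, the mitochondrial exchanger, had ratios of 0.74 in Twist2 and 1.22 in GFP differentiation.

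The endosomal sodium-proton exchanger Slc9a9 had 88.2 CPM in Tw2-DM, 24.3 in Tw2-GM, 50.2 in GFP-DM and 50.9 in GFP-GM. The GFP libraries were nearly equal (-0.02, interval -0.20 to 0.17), whereas the Twist2 ratio was 1.82 (1.67 to 2.06). Slc9a5, another member of that family, known mainly from brain, was lower in both differentiations, with 7.44 CPM in Tw2-DM, 38.5 in Tw2-GM, 8.12 in GFP-DM and 25.5 in GFP-GM. Its GFP ratio of -1.54 was -0.80 with outside-table scaling, under 2-fold. The anion exchangers Slc26a6 and Slc26a11 had between 3.61 and 16.8 CPM and were above 0 on the log2 ratio scale in both differentiations. Of 10 names of the sodium pump and carrier chaperones, the table held 4, all subunits of the pump, of which 4 were higher in Twist2 and 3 in GFP differentiation. Atp1b1, a beta subunit of the pump, had 16.9 CPM in Tw2-DM, 2.89 in Tw2-GM, 77.1 in GFP-DM and 4.82 in GFP-GM.

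Sugar carriers were led by Slc2a6, a member of the glucose transporter family. It had the highest ratio of all 53 carriers in GFP differentiation, 3.94 (3.78 to 4.75), and 2.49 (2.31 to 3.13) in Twist2 differentiation. Slc2a6 had 33.7 CPM in Tw2-DM, 5.15 in Tw2-GM, 75.9 in GFP-DM and 4.002 in GFP-GM, so both differentiated libraries were above both in growth medium. Slc37a3, of the sugar phosphate exchanger family, had 31.4 CPM in Tw2-DM, 30.4 in Tw2-GM, 13.6 in GFP-DM and 30.0 in GFP-GM. Slc50a1, a sugar carrier known from the Golgi, had 22.2 CPM in Tw2-DM, 27.2 in Tw2-GM, 8.23 in GFP-DM and 20.8 in GFP-GM. For both of these the GFP-DM library stood alone below the other 3. Their GFP ratios of -1.08 and -1.24 were under 2-fold with size factors (-0.75 and -0.92) and with outside-table scaling (-0.32 and -0.51). Of 18 glycolysis names, 9 were in the table, 4 higher and 2 lower in Twist2 differentiation and 6 higher and 3 lower in GFP differentiation. Pfkm, the muscle phosphofructokinase, had 299 CPM in Tw2-DM, 68.5 in Tw2-GM, 778 in GFP-DM and 79.4 in GFP-GM.

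All 3 carriers of lipids, choline and bile acids were 2-fold lower in GFP differentiation, and none of them passed 2-fold in either direction in Twist2 differentiation. Slc44a2, a choline transporter-like protein, had 525 CPM in Tw2-DM, 538 in Tw2-GM, 502 in GFP-DM and 1054 in GFP-GM, so GFP-GM stood alone above 3 similar libraries. Slc27a1, a fatty acid transport protein of muscle and fat, had 146 CPM in Tw2-DM, 92.5 in Tw2-GM, 39.5 in GFP-DM and 80.2 in GFP-GM. Its ratio was 0.66 in Twist2 differentiation (0.55 to 0.77), -1.002 in GFP differentiation (-1.20 to -0.84) and 1.86 in Tw2-DM over GFP-DM (1.73 to 2.06). Slc10a7, placed by sequence in the bile acid family, had 18.2 CPM in Tw2-DM, 25.9 in Tw2-GM, 4.76 in GFP-DM and 26.9 in GFP-GM. With outside-table scaling the GFP ratios of Slc44a2 and Slc27a1 were -0.27 and -0.22, and only that of Slc10a7 (-1.57) still passed 2-fold.

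Equilibrative nucleoside carriers of the cell surface were higher after both differentiations. Slc29a1, the main carrier of adenosine, had 517 CPM in Tw2-DM, 116 in Tw2-GM, 549 in GFP-DM and 163 in GFP-GM, with ratios of 2.14 (2.07 to 2.24) in Twist2 and 1.75 (1.67 to 1.84) in GFP cells. Slc29a2, its relative, had 28.2 CPM in Tw2-DM, 4.97 in Tw2-GM, 49.8 in GFP-DM and 12.6 in GFP-GM. The lysosomal member Slc29a3 had 33.7 CPM in Tw2-DM, 37.8 in Tw2-GM, 6.93 in GFP-DM and 26.0 in GFP-GM. Its ratio of 2.13 in Tw2-DM over GFP-DM (1.90 to 2.69) was the highest of all 53 carriers in that comparison.

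Of 6 metal carriers, 1 was higher and 2 were lower in Twist2 differentiation, and 2 higher and 2 lower in GFP differentiation. Slc30a4, a zinc carrier of vesicles, had 119 CPM in Tw2-DM, 440.3 in Tw2-GM, 309 in GFP-DM and 343 in GFP-GM. Tw2-DM was the single low library, with a ratio of -1.88 in Twist2 (-1.97 to -1.80) and -0.15 in GFP differentiation (-0.22 to -0.08). With outside-table scaling that GFP ratio was 0.65. Slc39a10, which brings zinc into the cell, was lower in both differentiations, with 26.9 CPM in Tw2-DM, 79.7 in Tw2-GM, 21.2 in GFP-DM and 70.2 in GFP-GM. With outside-table scaling its GFP ratio of -1.68 was -0.91 and no longer passed 2-fold. Slc11a2, which moves iron out of endosomes, was higher in both, with 106 CPM in Tw2-DM, 41.8 in Tw2-GM, 143 in GFP-DM and 65.5 in GFP-GM. Another zinc carrier, Slc39a11, had 32.7 CPM in Tw2-DM, 29.3 in Tw2-GM, 13.0 in GFP-DM and 30.3 in GFP-GM. The copper carrier Slc31a2 had 14.7 CPM in Tw2-DM, 7.68 in Tw2-GM, 26.7 in GFP-DM and 8.31 in GFP-GM. Slc41a3, of a magnesium carrier family, had 23.4 CPM in Tw2-DM, 13.8 in Tw2-GM, 6.71 in GFP-DM and 7.70 in GFP-GM, with both Twist2 libraries above both GFP libraries.

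The table held 7 of 12 names of iron, copper and zinc handling. Of these, 2 were higher and 1 lower in Twist2 differentiation, and 1 higher and 2 lower in GFP differentiation. In Tw2-GM over GFP-GM 2 of the 7 were higher and 2 lower, whereas 5.21% of all genes tested were higher and 10.6% lower. These counts rest on few genes and are descriptions. The metallothionein Mt1, which binds zinc, had 58.1 CPM in Tw2-DM, 26.7 in Tw2-GM, 9.53 in GFP-DM and 12.5 in GFP-GM. Tfrc, the transferrin receptor that delivers iron to endosomes, had 132 CPM in Tw2-DM, 82.0 in Tw2-GM, 486 in GFP-DM and 202 in GFP-GM. The Twist2 libraries were thus both above the GFP libraries for Mt1 and both below them for Tfrc.

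The 5 Slc35 genes, a family of Golgi and endoplasmic reticulum carriers of nucleotide sugars, had a median ratio of -0.10 in Twist2 and -1.05 in GFP differentiation. Slc35b1, known as a nucleotide exchanger of the endoplasmic reticulum, was the exception on the higher side, with 116 CPM in Tw2-DM, 54.4 in Tw2-GM, 107 in GFP-DM and 55.9 in GFP-GM. Slc35b4 had 57.9 CPM in Tw2-DM, 55.7 in Tw2-GM, 20.8 in GFP-DM and 47.5 in GFP-GM. Slc35e3 had 37.6 CPM in Tw2-DM, 41.0 in Tw2-GM, 19.5 in GFP-DM and 42.8 in GFP-GM. For these last 2, and for Slc35f1, with 41.1 CPM in Tw2-DM, 44.0 in Tw2-GM, 25.8 in GFP-DM and 54.3 in GFP-GM, GFP-DM was the single low library. Their GFP ratios, -1.15, -1.10 and -1.05, were -0.38, -0.33 and -0.27 with outside-table scaling. Slc35a3, a carrier of UDP-N-acetylglucosamine, had 13.8 CPM in Tw2-DM, 23.9 in Tw2-GM, 42.9 in GFP-DM and 43.0 in GFP-GM.

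All 5 carriers of organic ions, hormones and neurotransmitters had ratios above 0 in both differentiations, and 4 of 5 were called higher in each. Slc18a1, which loads monoamines into vesicles, had 15.3 CPM in Tw2-DM, 1.63 in Tw2-GM, 30.3 in GFP-DM and 3.69 in GFP-GM. Slco3a1, an organic anion carrier, had 127 CPM in Tw2-DM, 31.9 in Tw2-GM, 138 in GFP-DM and 60.2 in GFP-GM. For Slc18a1 and Slco3a1 both differentiated libraries were above both growth medium libraries, and Tw2-GM was the lowest. Slc22a17, known as a receptor for lipocalin, had 16.02 CPM in Tw2-DM, 7.86 in Tw2-GM, 18.5 in GFP-DM and 7.70 in GFP-GM. Slc22a15, of the same family, had 17.6 CPM in Tw2-DM, 6.32 in Tw2-GM, 10.6 in GFP-DM and 5.64 in GFP-GM.

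Carriers of vitamins and phosphate completed the set. Slc19a2, a thiamine transporter, had the lowest ratio of all carriers in GFP differentiation, with 41.6 CPM in Tw2-DM, 105 in Tw2-GM, 14.8 in GFP-DM and 86.6 in GFP-GM. It was lower in both differentiations, at -1.31 (-1.48 to -1.18) in Twist2 and -2.47 (-2.82 to -2.28) in GFP cells. Slc5a6, which carries biotin and pantothenate, was higher in both, with 14.0 CPM in Tw2-DM, 6.23 in Tw2-GM, 23.8 in GFP-DM and 4.82 in GFP-GM. Slc48a1, an endosomal haem carrier, had 117 CPM in Tw2-DM, 54.8 in Tw2-GM, 51.8 in GFP-DM and 45.4 in GFP-GM, and Tw2-DM was the single high library. Slc20a2, a sodium-phosphate cotransporter, had 161 CPM in Tw2-DM, 99.7 in Tw2-GM, 255 in GFP-DM and 75.2 in GFP-GM.

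Genes of the ABC transporter family, which includes pumps driven by ATP, were counted by symbol as another large family. A symbol of this family does not make each gene a pump or a transporter. Of 9 in the table, 3 were higher and 0 lower in Twist2 differentiation, and 6 higher and 2 lower in GFP differentiation, where all genes tested gave 26.5% and 24.5% in Twist2 and 32.6% and 40.9% in GFP cells. Abcc9, a subunit of ATP-sensitive potassium channels, had 20.0 CPM in Tw2-DM, 0.0904 in Tw2-GM, 51.0 in GFP-DM and 0.308 in GFP-GM.

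The 2 differentiation responses were then set side by side. The Twist2 log2 ratio minus the GFP log2 ratio was at least 1 for 14 of 53 carriers and at most -1 for 8, against 25.5% and 12.6% of all 3760 genes, and its median was 0.21 over the carriers and 0.19 over all genes. The carrier median was -0.34 with outside-table scaling. That scaling shifted the median of all listed genes by 0.25 in Twist2 and 0.78 in GFP differentiation. The all-gene median of the difference is not given under it, so the change of sign is not a result about carriers. The 5 most positive differences were those of Slc5a3 (2.06), Slc8a1 (1.96), Slc9a9 (1.84), Slc10a7 (1.79) and Slc27a1 (1.66). On the other side stood Slc4a3 (-2.58), Slc30a4 (-1.73), Slc7a5 (-1.52), Slc6a9 (-1.51) and Slc2a6 (-1.45). Of the 8 carriers at or below -1, Slc6a9, Slc2a6, Slc12a2 and Slc5a6 were called higher in both cells, with the smaller ratio in Twist2 cells.

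**Figure D3:**
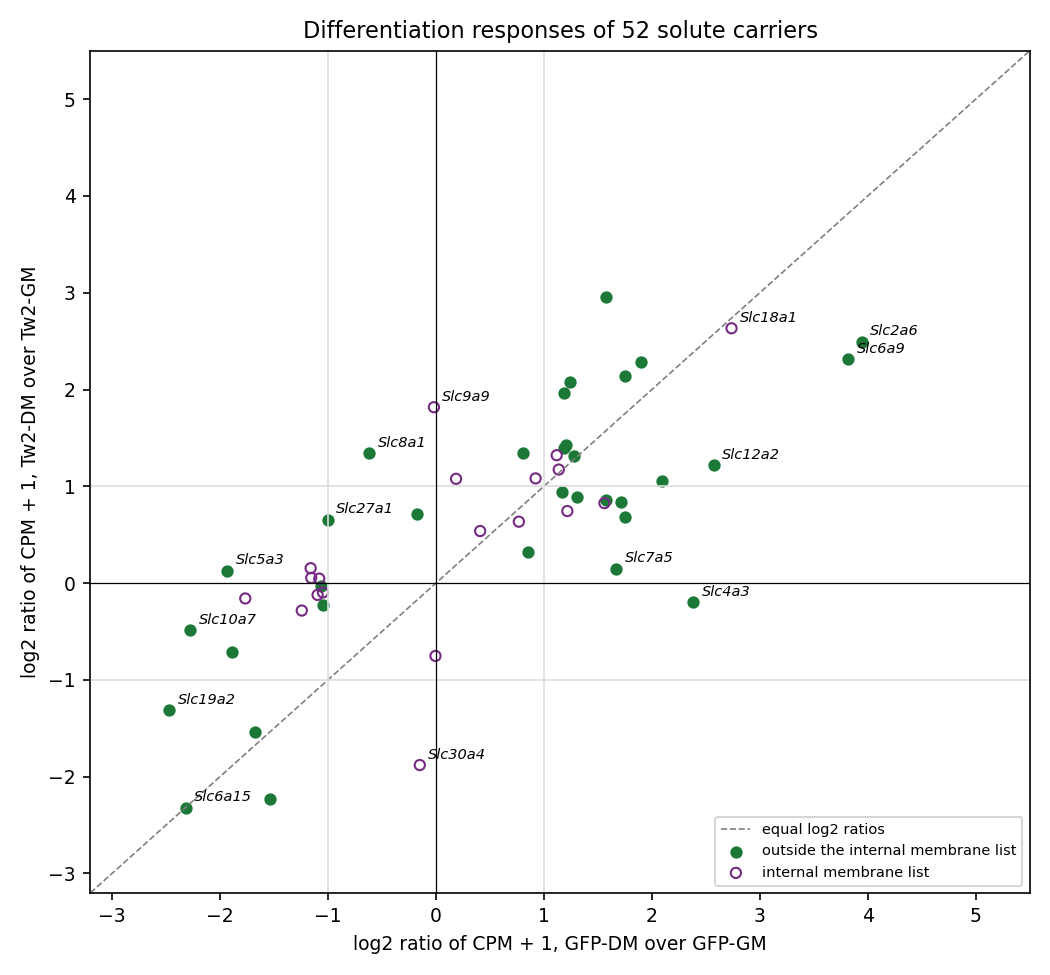
Each point is 1 of 52 of the 53 solute carriers, with the log2 ratio of CPM + 1 in GFP differentiation on the horizontal axis and in Twist2 differentiation on the vertical axis; open points are genes of the internal membrane list and pale lines mark 2-fold. A group of points lies near -1 on the horizontal and 0 on the vertical axis, and Slc4a3 lies alone at 2.38 and -0.19.

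Between the viruses after differentiation, 22 carriers were 2-fold different. Of 10 amino acid carriers 3 were lower (Slc7a5, Slc6a17 and Slc7a2) and 0 higher, and of 11 ion carriers 4 were lower (Slc4a3, Slc9a7, Slc4a7 and Slc12a2) and 1, Slc24a3, higher. Of all genes tested 25.4% were higher and 25.2% lower, so 3 of 10 is near the background. The higher side held 2 of 3 lipid carriers, 2 of 3 vitamin carriers and 2 of 3 sugar carriers. It also held 2 of 6 metal, 1 of 3 nucleoside, 1 of 3 creatine and osmolyte and 1 of 5 nucleotide sugar carriers. The lower side held 1 of 3 sugar, 1 of 6 metal and 1 of 5 nucleotide sugar carriers besides those named. Of the 12 higher carriers, 6 were among the 19 of the internal membrane list (31.6% of the 19), which is near the background. With outside-table scaling the higher side held only Slc29a3, Slc27a1, Slc10a7 and Slc41a3. The 7 lower carriers in growth medium were Slc9a7, Slc7a2, Slc4a7, Slc29a2, Slc8a1, Slc6a6 and Slc9a9. Of these, Slc9a7, Slc4a7 and Slc7a2 were also lower after differentiation. The growth medium call of Slc7a2 was lost with a pseudocount of 5 CPM and with both scalings. These 2 comparisons of Twist2 with GFP cells share no library, but each shares libraries with the differentiation comparisons.

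**Figure D4:**
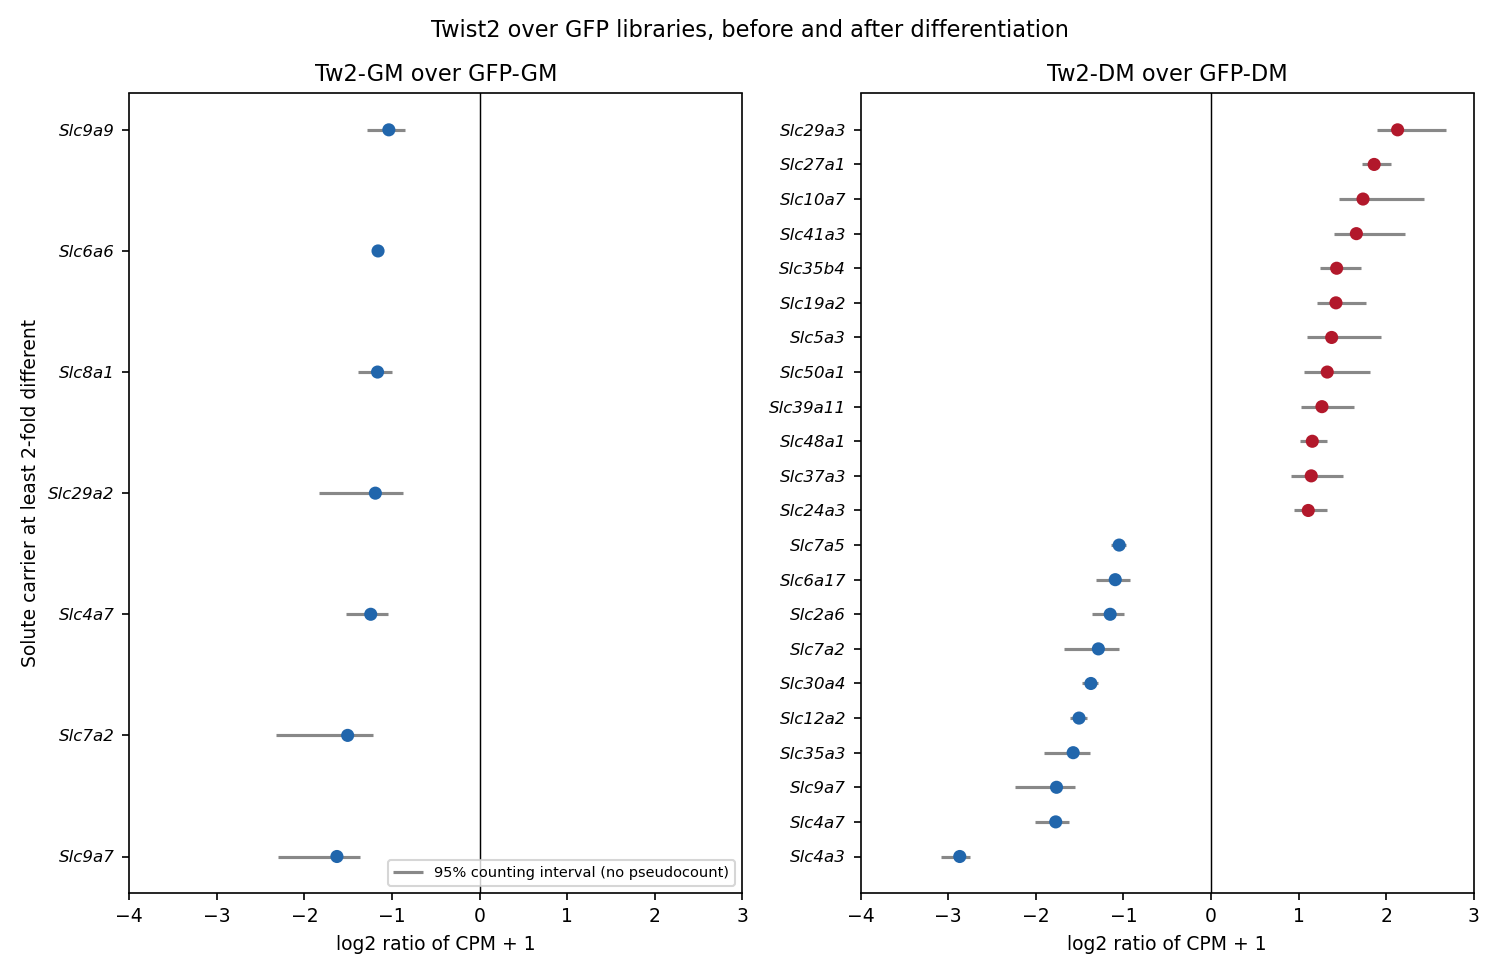
Log2 ratios of CPM + 1 (points) of the solute carriers called 2-fold different in Tw2-GM over GFP-GM (left) and in Tw2-DM over GFP-DM (right), with 95% counting intervals as lines. All 7 points on the left are below 0, and on the right 12 are above and 10 below, from 2.13 for Slc29a3 to -2.87 for Slc4a3.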

How the data were processed

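RNA of 4 libraries of cultured mouse myoblasts, 1 per group, was analysed from 1 table. Per the submitters' processing notes, TopHat2 2.0.0, DESeq2 1.6.3 and the mouse build GRCm38 (mm10) were used, in roles not stated. Counter, annotation and strandedness are not stated there. Per the file headers, the deposited values are CPM (per 1000000 reads of the library) and log2 ratios against GFP-GM. The deposited log2 columns matched log2 of (CPM + 1) over (CPM + 1) within 1.27e-11 and were used only to describe the selection of genes.

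In every library each CPM value was a whole number of steps of 1 read (100% within 0.001 reads), which gave the reads. With Python 3.11.15 and scipy 1.17.1, log2 ratios with a pseudocount of 1 CPM, 2-fold calls with a minimum of 10 CPM in the higher library and 95% counting intervals were computed over the whole table. Lacking molecular identifiers, reads may be copies of one molecule, so intervals cover counting error only. No count model was fitted, since no group has a replicate. The calculation was tested on simulated counts. All 53 symbols were found in GENCODE M21 (GRCm38), which gave merged exon lengths and exon overlaps; 8 carriers (Slc5a3, Slc5a6, Slc6a9, Slc8a1, Slc11a2, Slc20a2, Slc35a3 and Slc48a1) overlap exons of another protein-coding gene, so their reads are uncertain. Alternatives were pseudocounts of 0.1 and 5 CPM, no minimum CPM, median-of-ratios size factors over the table and scaling to the reads outside it (outside-table scaling). An alternative without the internal membrane list was chosen after seeing the data.

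Named members are, in each substrate class, the one with the highest mean CPM and up to 3 with the largest absolute ratio in each comparison; outside the carriers, genes of the partner lists that were 2-fold different. The other members and the example genes were chosen after their values were seen. Of the genes counted in the totals, 1 carrier and 1 partner gene are not reported here. The members and lists were chosen with earlier results of these data known.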

Additional observations from a re-analysis of the deposited data

Results flagged for a closer look

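For 9 carriers the differentiation ratio had opposite signs with the 2 viruses, 8 of them positive in Twist2 and negative in GFP cells. The same count was not made over all listed genes. Over these 3760 genes the Twist2 log2 ratio was above the GFP log2 ratio for 2093 and below it for 1667. The split of the 9 is thus a description without its own background. The difference between the 2 viruses was not tested, since each value rests on 1 library. The Twist2 log2 ratio minus the GFP log2 ratio was 2.06 for Slc5a3, 1.96 for Slc8a1, 1.84 for Slc9a9, 1.66 for Slc27a1, 1.31 for Slc39a11, 1.21 for Slc35b4, 1.13 for Slc37a3, 0.89 for Slc41a3 and -2.58 for Slc4a3. The counting intervals lay on opposite sides of 0 only for Slc8a1 and Slc27a1. For the other 7 at least 1 of the 2 intervals included 0. With outside-table scaling the GFP ratios of Slc8a1, Slc9a9 and Slc41a3 were 0.17, 0.77 and 0.53, and thus of the same sign as in Twist2 cells. The Twist2 ratio of Slc4a3 was then 0.05, the same sign as its GFP ratio of 3.17, so 4 of the 9 lost their opposite signs under that scaling. Other carriers gained opposite signs under it. Among these, Slc30a4 (-1.62 in Twist2 and 0.65 in GFP differentiation) and Slc35a3 (-0.51 and 0.78) were negative in Twist2 cells alone. Negative in GFP cells alone were Slc29a3 (0.09 and -1.04), Slc44a2 (0.22 and -0.27), Slc35e3 (0.13 and -0.33) and Slc35f1 (0.15 and -0.27). Which carriers have opposite signs thus depends on the scaling.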

How the results depend on the processing

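No paired analysis was possible because each group has 1 library and the labels give no replicate numbers; leaving out a replicate was not possible for the same reason. Pseudocounts of 0.1 and 5 CPM and the absence of a minimum CPM turned the sign of no carrier's ratio in the 4 comparisons. In GFP differentiation the count of lower carriers was 10 with a pseudocount of 5 CPM, 8 with size factors, 6 with outside-table scaling and 10 without the internal membrane list; the median was 1.20, 1.64 and 1.19 in the last 3. In Tw2-GM over GFP-GM the lower count was 4 with a pseudocount of 5 CPM and 2 with size factors. In Tw2-DM over GFP-DM, outside-table scaling gave 4 higher and 19 lower with a median of -0.65, and 6 were higher without the internal membrane list. The median difference of responses was -0.34 with outside-table scaling. Leaving out the internal membrane list leaves 34 of 53 genes, and scaling shifts all ratios of a comparison together (in Tw2-DM over Tw2-GM by 0.25 outside the table and 0.04 with size factors); the cause of the other shifts was not tested. The higher counts in both differentiations stayed within 1.5 times of 25 and 21, and no called ratio of a named carrier changed sign. Depth limits the genes with few reads, among them Slc18a1 with 18 reads in Tw2-GM.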
